A study of Mus musculus with 18 samples.

Results

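Alveolar macrophages that carried a CD11c-Cre knockout of Vhl and Hif1a were compared with macrophages from mice of the matching floxed control group. The comparison used 6 of the 18 RNA sequencing libraries of the series, 3 labelled Vhl-Hif1_KO and 3 labelled Vhl-Hif1_WT, and all 12900 genes that passed the filter on low counts. By the labels the knockout mice carried CD11c-Cre with the Vhl and Hif1a deletion, and the controls carried the floxed Vhl and Hif1a alleles. CD11c is the product of Itgax, so the recombinase acts in CD11c-positive cells of any type. The sources used here do not say whether the controls lacked Cre, or how old or of which sex the mice were. Whether a library came from 1 mouse or from pooled mice is not given either, so p-values measure the spread between libraries. That spread was estimated over all 18 libraries of the series. Cells were collected by bronchoalveolar lavage and selected on columns with CD11c beads, and polyA RNA was sequenced with a directional kit. The other 12 libraries came from a Vhl-Hif2 cross and a triple Vhl-Hif1-Hif2 cross, each with its own floxed controls, and share no library with this comparison.

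The product of Vhl recognises the hydroxylated alpha subunits of the hypoxia-inducible factors, HIF-1α (Hif1a) and HIF-2α (Epas1), and marks them for degradation. The hydroxyl groups are placed by oxygen-dependent prolyl hydroxylases (Egln1, Egln2 and Egln3), so that low oxygen or loss of Vhl lets the subunits accumulate and activate genes with the core recognition letters ACGTG or GCGTG. HIF-1α is best known for glycolysis genes, and HIF-2α for a partly different set. In cells without Vhl and Hif1a, HIF-2α is the alpha subunit of this pair that remains, and the comparison therefore addresses Vhl loss with HIF-2α left.

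Levels are given as library-size normalised counts (CPM, the count scaled to a common library size), in the order knockout 1, 2 and 3 or control 1, 2 and 3. Fold changes are log2 values of knockout over control ± SE from edgeR's quasi-likelihood model, and a gene counts as called where its p, adjusted by the Benjamini-Hochberg method, is below 0.05. The knockout libraries held 25851000 to 27050000 counts and the controls 22339000 to 25056000. The share of counts from mitochondrially encoded genes was 1.79 to 3.14% in the knockouts and 1.98 to 2.79% in the controls. Markers of alveolar macrophages were high throughout, with a summed level over 30 genes of 51703 to 57264 CPM in the knockouts and 44427 to 46280 CPM in the controls. Of these 30 genes, 3 were called higher (Slc7a2, Fabp4 and Ctsk) and 3 lower (Spp1, Mertk and Siglecf), beside 2.22% and 1.42% of all tested genes. The calls of Mertk and Siglecf were lost when single libraries were left out. The summed markers of other cells were lower than these. They were highest for lung epithelium, at 733 to 974 CPM in the knockouts and 673 to 729 CPM in the controls. Neutrophil markers, among them Csf3r and Cxcr2, which are described below, summed to 78.3 to 89.0 CPM in the knockouts and 157 to 166 CPM in the controls. Some members of these lists, the lymphocyte genes Pax5, Gzmb and Nkg7 and the neutrophil genes Ly6g, Elane and Mpo, had no count in any of the 6 libraries. In bulk RNA, fewer cells of a type and less RNA per cell cannot be told apart.

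Control 3 stood apart from controls 1 and 2 and is described before the results. Egln3, the prolyl hydroxylase 3 gene, was at 0.464, 0.617 and 32.5 CPM in controls 1, 2 and 3, from 11, 14 and 843 counts. The knockouts held 391, 548 and 515 CPM. Control 3 thus lay far above the other controls and far below every knockout. To see whether other genes did the same, the knockouts were compared with controls 1 and 2 alone, and control 3 was then placed between the 2 groups. Among 24 genes that were at least 16-fold higher in the knockouts and reached a mean of 1 CPM there, control 3 lay a median of 6.14% of the way from the other controls to the knockouts on the CPM scale, with quartiles of 4.79 and 6.87%. The shares for Egln3, H2-Aa, H2-Ab1, Cd74, F13a1 and C3ar1 were 6.60, 7.45, 6.62, 7.08, 6.70 and 6.68%. The lowest values were those of Adm at -0.452% and Ankrd37 at 0.117%, which sat with the other controls, and of Btnl4 at 2.34%, and the highest was that of Zbtb16 at 12.3%, followed by Olfml2a at 10.4%. Treated in the same way, control 1 had a median of -2.46% over 9 genes and control 2 of -2.56% over 10 genes, but these are measured against a control mean that includes control 3 and do not show the place of controls 1 and 2 independently of it. On the log2 scale, 177 of 224 genes called higher without control 3 (79.0%) lay on the knockout side of the other controls in control 3. This share was 49.3% for control 1 and 27.9% for control 2, with the same limit. Control 3 was not the only library placed toward the other group. Of the genes called higher without knockout 1, 86.9% lay on the control side of the other knockouts in it, against 38.0 and 37.7% for knockouts 2 and 3. For genes called lower the shares were 70.3% for control 3, 63.5 and 66.3% for controls 1 and 2, and 76.1, 50.6 and 67.4% for knockouts 1, 2 and 3. Vhl itself was at 18.7, 18.9 and 13.2 CPM in the controls and so lowest in control 3. The source of these transcripts was not tested, and the library was kept in the main fit. Leaving it out moved the log2 fold change of 15 of the 134 named genes that were called by more than 1.5-fold, against 1 gene each for knockout 1, knockout 3 and control 2 and none for knockout 2 and control 1.

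**Figure D1:**
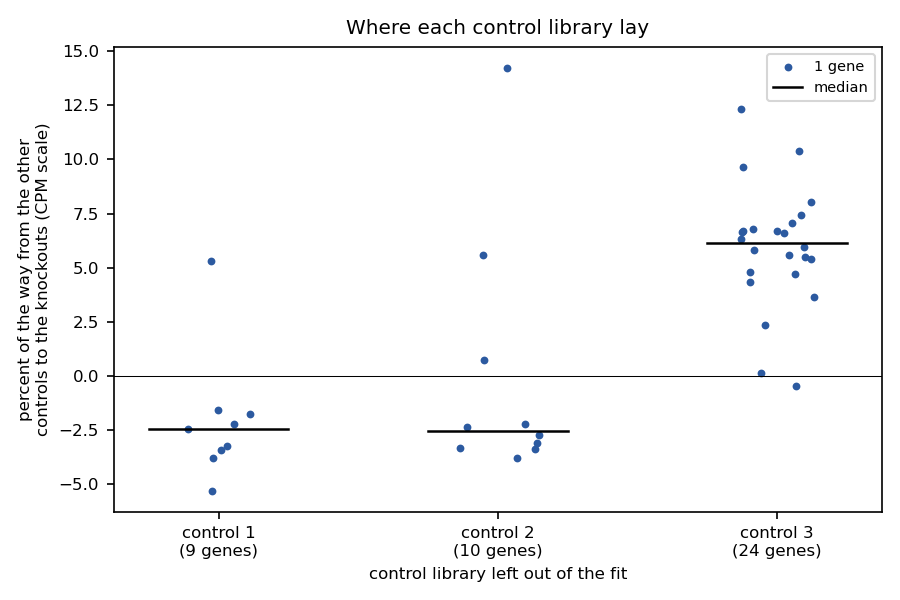
Each point is a gene at least 16-fold higher in the knockouts than in the 2 controls left in the fit, placed by its CPM level (vertical axis, percent of the way from the other controls at 0 to the knockouts) for each control library left out in turn (horizontal axis), and the black bars are medians. Control 3 has a median of 6.14% over 24 genes, while the medians of -2.46 and -2.56% for controls 1 and 2 are measured against a mean that includes control 3.

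Vhl RNA was reduced in every knockout library. Vhl (GRCm38 chr6:113623959-113631633) was at 2.93, 3.09 and 2.62 CPM in the knockouts and 18.7, 18.9 and 13.2 CPM in the controls. The groups did not overlap, and the knockouts held 17.0% of the control level (log2 fold change -2.55 ± 0.16, adjusted p = 8.77e-08). Hif1a (chr12:73901375-73947530) was at 206, 209 and 166 CPM against 230.2, 225 and 232 CPM in the controls, 84.5% of the control level, and did not pass the test (adjusted p = 0.662). The table counts reads over whole genes and the labels do not say which part of Hif1a was deleted, so this level does not check the deletion. Epas1 (chr17:86753700-86833410), the gene of the HIF subunit that was left intact, was at 36.8, 60.4 and 46.5 CPM in the knockouts and 35.9, 33.2 and 35.1 CPM in the controls (log2 fold change 0.46 ± 0.19, adjusted p = 0.261). All 3 knockouts lay above all 3 controls, with knockout 1 barely above control 1. For each of the 3 genes a two-sided exact permutation test of the 3 libraries against 3 gave p = 0.1, the smallest that this design allows.

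Across all tested genes, 469 (3.64%) were called, 286 higher (2.22%) and 183 lower (1.42%), while the median log2 fold change over the 12900 genes was -0.00066. Of the called genes, 285 had every knockout above every control and 181 every knockout below every control, beside 11.8% and 12% of all tested genes that did so. The changes upward reached further. At least a 2-fold change was seen for 152 of the genes called higher and 58 of those called lower, and at least an 8-fold change for 43 and 1. Leaving out 1 library at a time gave 275 to 360 called genes, with 335 without control 3, and of the 469 genes 317 (67.6%) were still called without it.

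**Figure D2:**
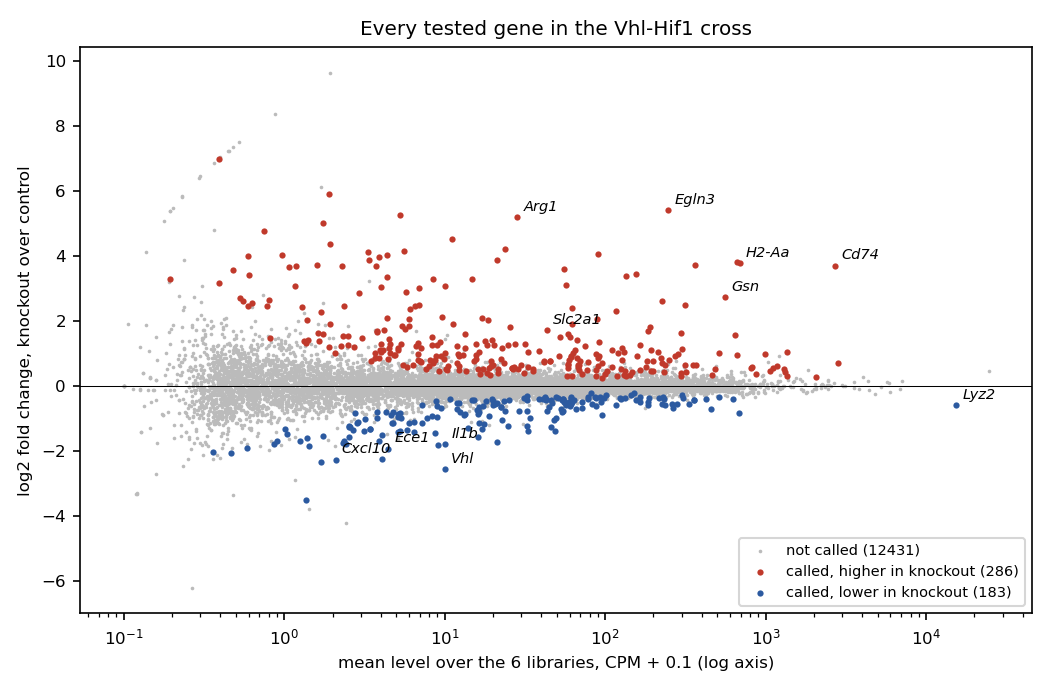
Each point is 1 of 12900 tested genes, with its mean level over the 6 libraries (CPM + 0.1, log axis) against its log2 fold change of knockout over control. The 286 genes called higher (red) reach larger changes than the 183 called lower (blue), and grey points were not called.

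Many of the highest fold changes were those of genes with little expression in the control macrophages. By log2 fold change the 20 leading genes, taken among called genes with a mean of at least 1 CPM and no overlap between groups, ran from 3.70 for Cd74 to 5.41 for Egln3. Egln3 had a log2 fold change of 5.41 ± 1.0 (adjusted p = 0.00326), which was 9.81 without control 3. F13a1, the A chain of coagulation factor XIII and 1 of the monocyte markers, was at 6.38, 9.05 and 14.7 CPM in the knockouts and 0, 0.0441 and 0.694 CPM in the controls, with a change of 5.27 ± 0.72 (8.59 without control 3). Arg1, the arginine-hydrolysing enzyme arginase 1, was at 28.2, 59.2 and 78.0 CPM against 0.844, 0.132 and 3.43 CPM (5.19 ± 0.66, and 6.80 without control 3). Both genes varied among the knockouts more than Egln3 did, with knockout 1 lowest and knockout 3 highest, and no knockout overlapped a control.

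C3ar1, the receptor of the complement fragment C3a, was at 36.5, 52.9 and 45.9 CPM in the knockouts and 1.43, 1.45 and 4.36 CPM in the controls (4.20 ± 0.36). Plcb4, a phospholipase C that hydrolyses membrane phosphoinositides, was at 20.9, 20.6 and 21.8 CPM against 0.464, 0.529 and 1.70 CPM (4.52 ± 0.31). Abcb4, a phosphatidylcholine transporter, was at 11.5, 10.1 and 9.70 CPM against 0.253, 0.352 and 1.12 CPM (4.14 ± 0.46). For C3ar1, Plcb4 and Abcb4 control 3 was again the highest control, and without it the changes were 4.97, 5.41 and 5.10. Topaz1, a gene known from germ cells, was at 41.6, 43.2 and 34.4 CPM against 1.98, 1.98 and 4.05 CPM (3.88 ± 0.24). Rtl5, which derives from a retrotransposon, was at 145, 185 and 181 CPM against 6.54, 7.53 and 16.8 CPM (4.04 ± 0.26). Nhsl2 had 4.02 ± 0.43 (4.63 without control 3), but Rtl5 lies within Nhsl2 on the opposite strand, and since the strand setting of the counting is not given their reads may not be separated. Plin4, a coat protein of lipid droplets, was at 6.31, 7.41 and 7.78 CPM against 0.253, 0.485 and 0.617 CPM (3.97 ± 0.32). Besides Cd74 and the class II chain genes, the remaining genes of this group were Sema3g (5.0, 6.08 without control 3), Spsb4 (4.37, 4.97), Ankrd37 (4.12), Btnl4 (3.87), Barx2 (3.72) and Zbtb16 (3.70, 4.81 without control 3). Btnl4 (chr17:34466562-34477318) lies between H2-Eb1 and Cfb, near the class II genes. All adjusted p-values of the 20 leading genes were 0.00326 or lower.

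**Figure D3:**
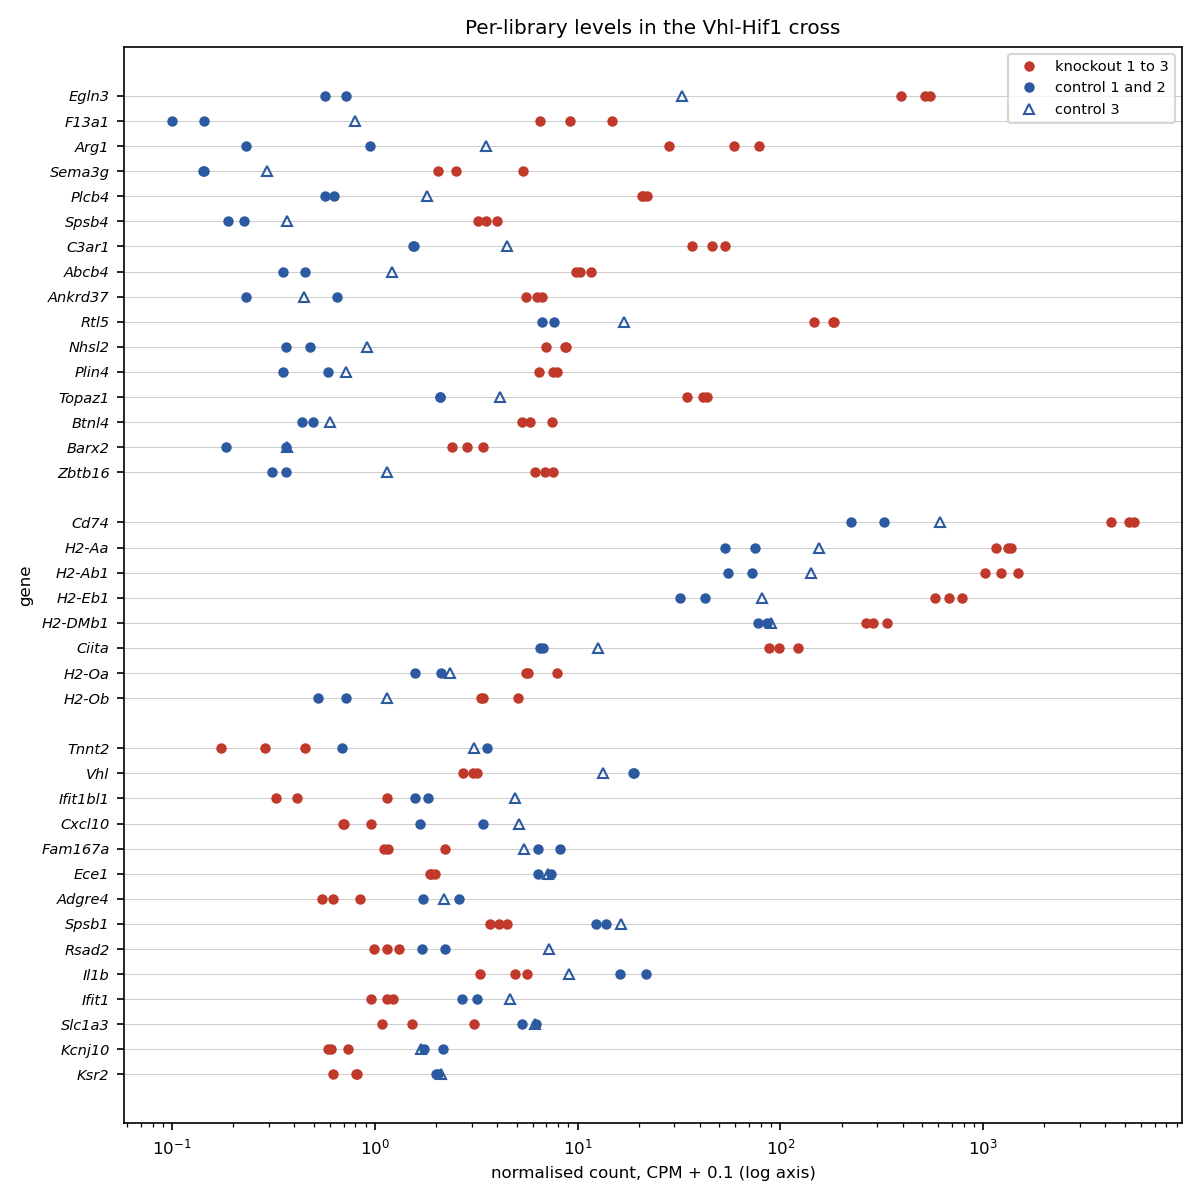
Per-library levels (CPM + 0.1, log axis) of leading genes higher in the knockouts (top), class II genes (middle) and leading genes lower in the knockouts (bottom), with knockouts as red points, controls 1 and 2 as filled blue points and control 3 as an open triangle. For Egln3 the triangle lies at 32.5 CPM, between controls 1 and 2 below 1 CPM and knockouts above 390 CPM.

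Measured by the difference in CPM instead, the gains were led by genes that control macrophages already expressed. Cd74, the invariant chain that escorts class II molecules, gained most and is described with the class II genes. Gsn, gelsolin, which severs actin filaments, was at 819, 983 and 1121 CPM in the knockouts and 126, 118 and 198 CPM in the controls (2.72 ± 0.20, adjusted p = 2.36e-07). Slc7a2, a transporter of cationic amino acids, was at 1649, 1994 and 1879 CPM against 825, 921 and 921 CPM (1.05 ± 0.11). Trf, transferrin, was at 3355, 3471 and 3707 CPM against 2077, 2104 and 2308 CPM (0.70 ± 0.08). Fcgr2b, the inhibitory IgG receptor (1.58 ± 0.16), Selenop, a selenium carrier (0.99 ± 0.14), and Lgals3, galectin-3 (0.60 ± 0.12), gained as well. The gains and losses of this paragraph were taken among called genes with no overlap between groups, so their lack of overlap was fixed by that choice. The largest loss in CPM was that of Lyz2, lysozyme, at 12526, 11613 and 12754 CPM in the knockouts and 19366, 18278 and 17828 CPM in the controls (-0.59 ± 0.07, adjusted p = 3.97e-05). Tgfbi, a matrix protein, was at 493, 453 and 537 CPM against 921, 843 and 864 CPM (-0.82 ± 0.09), and Clec4n, which is dectin-2, at 201, 194 and 211 CPM against 344, 336 and 293 CPM (-0.68 ± 0.10). Alas1, which starts haem synthesis, fell by 0.57 on the log2 scale.

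A minority of the hypoxia genes was called higher in these cells. The counts of called list members, here and below, stand beside 2.22% of all tested genes called higher and 1.42% called lower. The oxygen-sensing list had 14 tested members, of which Egln3 and Egln1 were called higher, Vhl lower and 11 not called, with a list median of 0.20. Egln1, the main oxygen-sensing prolyl hydroxylase, was at 86.2, 89.7 and 92.5 CPM in the knockouts and 60.3, 62.7 and 68.3 CPM in the controls (0.49 ± 0.10, adjusted p = 0.00857), a call that was lost without control 1 (adjusted p = 0.0532) and without control 2 (0.0503). Egln2, the third of these enzymes, was at 38.2, 39.6 and 54.4 CPM against 43.4, 42.6 and 44.4 CPM and did not pass (adjusted p = 0.984).

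Glucose uptake and glycolysis were divided between 2 lists. Of 16 tested genes from glucose uptake to aldolase, 4 were called higher and none lower (median 0.21), and of 15 tested genes from triose phosphate isomerase to lactate, 4 were called higher and none lower (median 0.19). Slc2a1, the GLUT1 glucose transporter, was at 62.7, 66.7 and 69.3 CPM in the knockouts and 23, 16.9 and 20.4 CPM in the controls (1.72 ± 0.19, adjusted p = 1.51e-05). Its fold change was the highest among the called genes of both lists, and the groups were far apart. Pfkl, a phosphofructokinase subunit, was at 76.6, 82.4 and 82.3 CPM against 39.3, 39.8 and 47.9 CPM (0.93 ± 0.14). Tpi1, triose phosphate isomerase, was at 246, 255 and 288 CPM against 118, 115 and 137 CPM (1.09 ± 0.12). Pgam1, phosphoglycerate mutase, was at 305, 341 and 310.0 CPM against 174, 164 and 209.6 CPM (0.80 ± 0.09). These 4 genes were called without each of the 6 libraries. Hk1 (0.51), Aldoa (0.54), Pkm (0.55) and Ldha (0.35) were called with all libraries but not without each of them, with adjusted p up to 0.125, 0.121, 0.0749 and 0.164. Without knockout 3 or control 2 each of the 2 lists had 2 genes called. Hk2 (0.33 ± 0.11, adjusted p = 0.129) and Pgk1 (-0.10 ± 0.10, adjusted p = 0.781), both known HIF targets, did not pass.

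Bnip3, a mitophagy receptor, was at 102, 119 and 91.5 CPM in the knockouts and 18.6, 17.1 and 23.7 CPM in the controls (2.39 ± 0.17, adjusted p = 2.32e-07), and with Mxi1, a Myc antagonist (0.60 ± 0.08), was 1 of 2 genes called among 13 of its list. Its relative Bnip3l was at 426, 412 and 374 CPM against 387, 379.8 and 389 CPM, with an adjusted p of 0.853. Among 29 other hypoxia-response genes, 7 were called higher and 2 lower, with a median of 0.22. Gpr35, an orphan G protein-coupled receptor, was at 84.1, 111 and 111 CPM against 9.33, 7.97 and 18.1 CPM (3.11 ± 0.27). Ankrd37 was at 5.48, 6.18 and 6.57 CPM against 0.549, 0.132 and 0.347 CPM, and its overlapping neighbour on the opposite strand, Lrp2bp, was at 0.601, 0.596 and 0.547 CPM in the knockouts with no count in the 3 controls. Adm, the vasodilator peptide adrenomedullin, was at 1.01, 1.15 and 1.60 CPM against 0, 0.0881 and 0.0386 CPM. Ndrg1 (1.46 ± 0.21) and P4ha1, a collagen prolyl hydroxylase (0.80 ± 0.12), were also called higher without each library. Nrn1, a membrane-anchored protein known from neurons, was higher too (1.39 ± 0.23). The calls of the 2 genes that were lower, Ak3 (-0.35) and Narf (-0.47), were both lost without knockout 2, knockout 3 or control 3, with adjusted p up to 0.108 and 0.18. In the glycogen list of 14, Ppp1r3b, which targets a phosphatase to glycogen, was higher (0.76 ± 0.09), and Gys1 (0.58 ± 0.16) was called but lost without each of the 6 libraries (adjusted p up to 0.193). None of 21 JmjC histone demethylases was called by edgeR or DESeq2, and 1 had an unadjusted p under 0.05.

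Parts of 3 RefSeq promoters (build GRCm38.p6), chosen as genes of the hypoxia lists called without each library whose promoters hold the HIF-type letters, are shown 5′ to 3′ on the gene's strand. Capitals mark ACGTG and GCGTG on either strand, the second of which reads CACGC on the strand shown, and CACGTG holds ACGTG on both strands.
Egln3, chr12:54204065-54204124 (minus strand): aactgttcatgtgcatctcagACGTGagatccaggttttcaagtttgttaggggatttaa
Slc2a1, chr4:119108675-119108744 (plus strand): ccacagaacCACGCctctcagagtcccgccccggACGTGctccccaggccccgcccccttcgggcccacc
Bnip3, chr7:138909537-138909636 (minus strand): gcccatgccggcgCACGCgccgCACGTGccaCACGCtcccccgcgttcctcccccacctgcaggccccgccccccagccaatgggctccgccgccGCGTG
Over the 250 bases before the start, ACGTG or GCGTG on either strand was found in 115 of 221 genes called higher with a promoter in the table (52.0%), in 47 of 144 genes called lower (32.6%) and in 56.7% of all 9958 tested genes with a promoter. The share among genes called higher was thus near that of all genes, and a match is a description of the letters and not a binding site.

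The class II genes of the major histocompatibility complex (MHC) had the highest median fold change of the 49 lists. Class II molecules present peptides from ingested material to CD4 T cells, and Ciita is the coactivator on which their transcription depends. Of the 11 tested genes of the list, 8 were called higher and none lower, and the median log2 fold change was 2.46. The 8 were called without each library, and without control 3 the median of the list was 2.89. The summed level of the list was 7641 to 9898 CPM in the knockouts and 668 to 1331 CPM in the controls.

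Ciita was at 87.5, 98.3 and 122 CPM in the knockouts and 6.63, 6.39 and 12.5 CPM in the controls (3.59 ± 0.30, adjusted p = 7.50e-07). Cd74 was at 4261, 5245 and 5537 CPM against 326, 223 and 610.1 CPM (3.70 ± 0.36). Both were higher in every knockout than in any control, by a wide gap, and control 3 was the highest control. Among the chains of the surface molecules, H2-Aa (chr17:34282744-34287823) was at 1162, 1375 and 1319 CPM against 74.4, 53.4 and 155 CPM (3.77 ± 0.38). H2-Ab1 was at 1024, 1229.9 and 1483 CPM against 71.9, 54.8 and 142 CPM (3.80 ± 0.37), and H2-Eb1 at 577, 674 and 782 CPM against 42.5, 31.9 and 80.8 CPM (3.71 ± 0.32). The 3 chain genes and Cd74 had log2 fold changes between 3.70 and 3.80. The genes of peptide loading changed less. H2-DMb1, a chain of the peptide editor H2-M, was at 264, 287 and 334 CPM against 85.7, 77.3 and 89.2 CPM (1.81 ± 0.14). H2-Oa and H2-Ob, the chains of the modulator H2-O, were at 5.56, 5.47 and 7.82 CPM against 1.48, 2.03 and 2.24 CPM (1.71 ± 0.27) and at 3.30, 4.99 and 3.24 CPM against 0.422, 0.617 and 1.04 CPM (2.46 ± 0.37). H2-DMa, the partner chain of H2-DMb1, was at 236, 229 and 287 CPM against 213, 199.7 and 219 CPM, and H2-DMb2 at 20.5, 22.1 and 22.3 CPM against 17.1, 17.8 and 19.4 CPM. Both had every knockout above every control but did not pass the test (log2 fold changes 0.25 ± 0.14 and 0.26 ± 0.13, adjusted p = 0.494 and 0.458), while H2-Eb2, under 0.5 CPM in every library, had every knockout below every control and did not pass either (-1.16 ± 0.83, adjusted p = 0.647). H2-DMb1 and H2-DMb2 are close copies, and the labels do not say how shared reads were assigned.

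None of 21 genes on a list of class II regulators and neighbouring genes was called by edgeR or DESeq2, 4 had an unadjusted p under 0.05, and the median of that list was -0.01. The subunits of the RFX complex that binds class II promoters did not pass the test, with 21.2, 22.2 and 21.3 CPM against 23.3, 20.5 and 16.7 CPM for Rfx5, 10.4, 9.53 and 12.8 against 10.5, 8.68 and 12.2 CPM for Rfxap and 16.8, 18.2 and 17.7 against 15.9, 13.3 and 15.5 CPM for Rfxank (adjusted p = 0.813, 0.947 and 0.294). Dendritic cells, B cells, monocytes and interstitial macrophages can also carry class II molecules, and their markers are given beside these genes. The 18 dendritic cell markers summed to 133 to 147 CPM in the knockouts and 142 to 168 CPM in the controls. Of 16 tested, none was called by edgeR or DESeq2 and 2, both lower, had an unadjusted p under 0.05. Flt3, Zbtb46 and Xcr1 were at 1.88, 2.20 and 1.92, 1.31, 1.53 and 1.41 and 0.488, 0.261 and 0.665 CPM in the knockouts and 3.0, 2.07 and 3.01, 1.94, 1.63 and 2.24 and 0.675, 0.617 and 0.578 CPM in the controls. The 9 B cell markers summed to 0.559 to 0.821 CPM in the knockouts and 0.424 to 0.749 CPM in the controls, and Pax5, Blk and Fcer2a were at 0 in all 6 libraries. The 18 monocyte and interstitial macrophage markers summed to 113, 133 and 146 CPM in the knockouts and 123, 122 and 118 CPM in the controls. Of 11 tested, F13a1 and Itgam (1.34 ± 0.21) were called higher, also without each library, and none lower. Itgam was also called higher in the triple cross (1.25, adjusted p = 0.0354). Ccr2, a monocyte receptor, was at 12.7, 12.3 and 10.6 CPM against 12.3, 12 and 14 CPM, and C1qa, a complement gene of interstitial macrophages, at 1.05, 0.968 and 2.31 CPM against 1.43, 1.19 and 1.97 CPM. The part of other cells in the class II values was not tested beyond these levels.

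The promoters of 5 of the 8 called class II genes were in the RefSeq table and are shown because these genes moved together. Capitals mark GNAAC, the letters at the centre of the X box that RFX binds, and ATTGG, the reversed CCAAT of the Y box.
H2-Aa, chr17:34287824-34287923 (minus strand): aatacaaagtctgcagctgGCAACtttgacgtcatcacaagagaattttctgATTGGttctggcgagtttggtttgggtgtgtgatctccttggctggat
H2-Eb1, chr17:34305752-34305851 (plus strand): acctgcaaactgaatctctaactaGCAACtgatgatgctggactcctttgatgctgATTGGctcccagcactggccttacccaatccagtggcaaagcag
H2-DMb1, chr17:34153076-34153175 (plus strand): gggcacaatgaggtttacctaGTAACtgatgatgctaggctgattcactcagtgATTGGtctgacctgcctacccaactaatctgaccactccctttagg
H2-Oa, chr17:34092279-34092378 (plus strand): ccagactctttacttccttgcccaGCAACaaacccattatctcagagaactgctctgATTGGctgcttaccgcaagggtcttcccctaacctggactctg
H2-Ob, chr17:34238790-34238889 (plus strand): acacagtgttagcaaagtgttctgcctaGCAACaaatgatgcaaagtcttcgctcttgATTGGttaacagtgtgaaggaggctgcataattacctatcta
From the first base of GNAAC to the first base of ATTGG there were 33 bases in H2-Aa, H2-DMb1 and H2-Oa, 32 in H2-Eb1 and 30 in H2-Ob, and ATTGG began 43 to 61 bases before the start. This pair of letters was searched on both strands at 30 to 33 bases and was chosen after these 5 promoters had been seen. It stood in each of the 5, in 72 of 9958 promoters of tested genes (0.723%), in 9 of 221 of the genes called higher (4.07%) and in none of 144 called lower. The 5 are among the 9 and the 72, so the share of genes called higher was in part fixed by that choice. The pair also stood in H2-Eb2, which was not called, and not in H2-DMa or H2-DMb2. The HIF-type letters ACGTG and GCGTG were in none of the 5 promoters, which says only that these letters are not in these windows.

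Class I presentation and costimulation did not follow class II. Of 21 tested genes of class I presentation, 2 were called higher and 1 lower (median 0.03). The nonclassical genes H2-M3, at 30.9, 30.7 and 35.5 CPM against 21.8, 20.9 and 21.7 CPM (0.59 ± 0.08), and H2-T23, at 200.4, 211 and 238 CPM against 148, 142 and 143 CPM (0.59 ± 0.11), were higher. Nlrc5, the transactivator of class I genes, was at 5.22, 5.77 and 6.10 CPM against 9.28, 11.1 and 11.8 CPM (-0.91 ± 0.19, adjusted p = 0.0103), a call lost without knockout 1 (adjusted p = 0.0537) or control 3 (0.0545). B2m and H2-K1 had adjusted p-values of 0.582 and 0.747. Of 16 tested costimulatory and checkpoint genes, none was called higher and 4 lower. Lgals9, galectin-9, was at 42.9, 40.6 and 37.6 CPM against 65.6, 63.7 and 76.3 CPM (-0.76 ± 0.11) and was called without each library. Icam1, Icosl and Cd80 had -0.68, -0.40 and -0.54, and their calls were lost without 4, 5 and 6 of the 6 libraries. Cd86 and Cd40, the other principal costimulatory genes, were at 12.6, 10.4 and 11.3 CPM against 10.6, 9.96 and 13.0 CPM and 0.300, 0.559 and 0.547 CPM against 0.717, 0.441 and 0.578 CPM (adjusted p = 0.975 and 0.901).

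**Figure D4:**
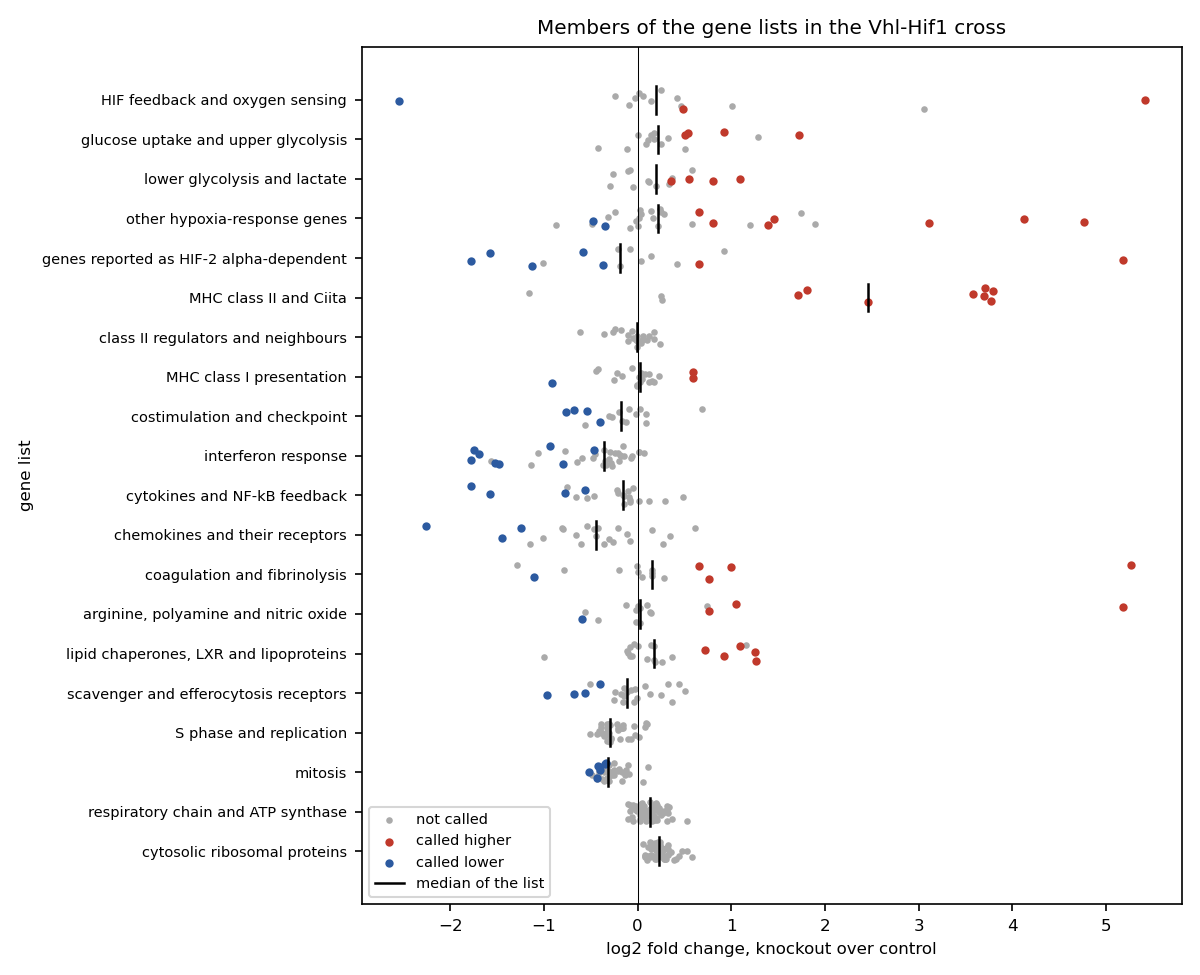
Log2 fold changes of the tested members of 20 gene lists, with members called higher in red, called lower in blue and not called in grey, and the median of each list as a black bar. The class II list has a median of 2.46 with 8 of 11 members called, and the respiratory chain and ribosomal protein lists have none called.

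Interferon-stimulated genes were lower where they changed. Of 36 tested genes, none was called higher and 8 lower, beside 1.42% of all tested genes, with a median of -0.35. Of the 36, 16 had every knockout below every control, beside 12% of all tested genes. Gbp5, a guanylate-binding protein, was at 3.87, 3.43 and 2.97 CPM in the knockouts and 5.99, 5.99 and 7.71 CPM in the controls (-0.94 ± 0.17, adjusted p = 0.00225). Gbp3 was at 3.19, 2.94 and 3.13 CPM against 5.36, 5.02 and 5.67 CPM (-0.79 ± 0.16), and Ifit1, an RNA-binding antiviral protein, at 1.05, 0.857 and 1.13 CPM against 2.57, 3.08 and 4.55 CPM (-1.75 ± 0.32). Those 3 genes were called without each library. Rsad2, Ifit2 and Ifit3 were highest in control 3, at 1.60, 2.11 and 7.10, 3.46, 4.27 and 9.91 and 1.52, 2.86 and 6.02 CPM over the controls, and without control 3 their changes of -1.78, -1.52 and -1.69 became -0.81, -0.90 and -1.01 and were not called (adjusted p = 0.258, 0.273 and 0.295). The list had 3 genes called without control 3, knockout 2 or knockout 3, and 6 or 7 without the others. For Rsad2, Ifit2 and Ifit3 control 3 lay on the far side from the knockouts, unlike its place for Egln3 and the class II genes.

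A few inflammatory cytokine and chemokine genes were lower. Of 22 tested cytokine and NF-kB feedback genes, 4 were called lower and none higher, and of 23 tested chemokine genes 3 were called lower and none higher. Every knockout lay above every control for 2 genes of each list, and below every control for 3 of the 22 and 7 of the 23. Over all tested genes these shares were 11.8% above and 12% below. In other runs, 1 chemokine gene was called higher by DESeq2, without the filter or without knockout 3, as was 1 cytokine gene in the fit of the 6 libraries alone. Il1rn, the antagonist of the IL-1 receptor, was at 194, 189 and 168 CPM against 265, 275 and 275 CPM (-0.56 ± 0.11) and was called without each library. Il1b was at 3.19, 4.80 and 5.51 CPM against 21.6, 16 and 8.91 CPM (-1.78 ± 0.43), and Tnf at 4.81, 9.76 and 9.54 CPM against 30.4, 32.4 and 9.41 CPM (-1.58 ± 0.37). For Tnf control 3 lay at the level of the knockouts, just below knockouts 2 and 3. The calls of Il1b and Tnf were lost without 5 and 4 of the libraries, and the call of Il1a (-0.77 ± 0.17) without 3, with adjusted p up to 0.136, 0.131 and 0.082. Without knockout 1, control 1 or control 2, 1 of the 4 cytokine genes stayed called. Knockout 1 and control 3 were also low in immediate early genes, whose 20-gene sum was 1225 CPM in knockout 1 and 1364 CPM in control 3, against 2127 to 2255 CPM in the other 4 libraries. Fosb, an immediate early transcription factor, was at 3.0, 60.7 and 54.1 CPM in the knockouts and 86.8, 111 and 6.29 CPM in the controls. The part of this difference between libraries in the cytokine values was not tested. Of the 19 tested immediate early genes, only Ier3 was called, at 19.6, 35.3 and 27.4 CPM against 6.75, 7.44 and 5.21 CPM (2.09 ± 0.41).

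Cxcl10, the interferon-induced chemokine, was at 0.601, 0.596 and 0.860 CPM in the knockouts and 1.56, 3.30 and 5.01 CPM in the controls (-2.26 ± 0.36, adjusted p = 8.45e-04). Cxcr2, a receptor of neutrophil-attracting chemokines, was at 5.63, 4.66 and 3.60 CPM against 11, 14.1 and 12.8 CPM (-1.45 ± 0.16). Both were called without each library, whereas Cxcl3 (-1.25 ± 0.33) lost its call without 5 of the 6. Csf3r, the receptor of the granulocyte growth factor, was at 30.1, 24.5 and 27.1 CPM against 63.8, 71.1 and 76.7 CPM (-1.37 ± 0.11, adjusted p = 7.57e-07). Cxcr2 and Csf3r are also markers of neutrophils. The 14 neutrophil markers, these 2 included, summed to 78.3 to 89.0 CPM in the knockouts and 157 to 166 CPM in the controls. The lower sum thus holds the drop of these 2 genes and is not separate from it. Of 8 tested, Csf3r, Cxcr2 and Mmp8 were called lower and S100a8 higher (1.16 ± 0.19), Ly6g, Elane and Mpo were at 0 in all 6 libraries, and S100a9 was under 0.5 CPM in each. The part of neutrophil RNA in these 2 receptors was not tested beyond these levels.

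Complement and coagulation genes moved in both directions. In the complement list of 16, C3ar1 and Itgam, the latter also 1 of the monocyte markers, were called higher and Cfb and C3 lower. Cfb, factor B, was at 62.0, 64.7 and 72.4 CPM against 146, 119 and 108 CPM (-0.90 ± 0.18), and C3 was at 231, 272 and 304 CPM against 408, 410.0 and 373 CPM (-0.56 ± 0.14), with a call lost without 5 of the 6 libraries. In the coagulation list of 15, 4 were called higher and 1 lower. F10, coagulation factor X, was at 355, 377 and 396 CPM against 186, 183 and 198 CPM (0.99 ± 0.08, adjusted p = 8.20e-07). F10 and F13a1 were called without each library, and Thbd (0.76) and Procr (-1.11), receptors of the anticoagulant protein C pathway, lost their calls without each of the 6 (adjusted p up to 0.152 and 0.178). F7, the partner of tissue factor, was at 424, 457 and 478 CPM against 483, 432 and 444 CPM (adjusted p = 1.0).

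Among genes of arginine handling, an importer and an arginase were higher. Slc7a2 and Arg1, described above, import and hydrolyse arginine, and with Smox, a spermine oxidase (0.76 ± 0.20, lost without 5 libraries), were called higher among 16 tested genes of arginine, polyamine and nitric oxide metabolism, where Paox, a polyamine oxidase, was called lower (-0.59 ± 0.14) but not without every library. Arg2, the mitochondrial arginase, was at 1.61, 1.68 and 1.49 CPM against 2.36, 2.20 and 2.51 CPM and was not called (adjusted p = 0.611). Of 15 tested genes reported elsewhere as dependent on HIF-2α, 2 were called higher, Arg1 among them, and Spp1, Slc40a1, Tnf, Csf1r and Il1b lower, with a median of -0.18. Spp1, osteopontin, was at 161, 185 and 223 CPM against 309, 292 and 255 CPM (-0.59 ± 0.11) and was, with Arg1, the member called without each library. Slc40a1, the iron exporter ferroportin, was at 3.38, 4.21 and 3.44 CPM against 7.68, 7.80 and 8.72 CPM (-1.13 ± 0.26), with a call lost without 4 libraries (adjusted p up to 0.0903).

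Several lipid carriers were higher. Of 21 tested lipid chaperones, LXR genes and lipoproteins, 5 were called higher, none lower, and the 5 were called without each library (median of the list 0.17). Apoe, apolipoprotein E, was at 202, 238 and 254 CPM in the knockouts and 110.1, 87.2 and 92.6 CPM in the controls (1.26 ± 0.21, adjusted p = 0.00144). Fabp4, a fatty acid-binding protein, was at 80.8, 90.3 and 93.7 CPM against 50.7, 36.7 and 36.4 CPM (1.10 ± 0.15). Nr1h3, the sterol sensor LXRα, was at 83.7, 92.7 and 114 CPM against 62.0, 56.7 and 57.0 CPM (0.72 ± 0.10). Pltp, a phospholipid transfer protein (0.92 ± 0.14), and Apoc1 (1.26 ± 0.22) were higher as well, while the sterol exporters Abca1 and Abcg1 had adjusted p-values of 1.0 and 0.261. Among 19 genes of fatty acid synthesis, Acly, which makes cytosolic acetyl-CoA, was at 835, 936 and 831 CPM against 426, 429.7 and 501 CPM (0.94 ± 0.09), and Acsl3 at 25.5, 29.7 and 21.6 CPM against 11.8, 11.2 and 9.33 CPM (1.25 ± 0.22). The elongase Elovl6 (-0.78 ± 0.17) and desaturase Fads1 (-0.80 ± 0.19) were called lower but not without 3 and 4 of the libraries (adjusted p up to 0.0898 and 0.127), and Fasn was at 77.7, 103 and 125 CPM against 111, 131 and 105 CPM (adjusted p = 0.822). Of 24 cholesterol synthesis genes, Cyp51 was the 1 called (-0.50 ± 0.13), which is 4.17% of the list beside 3.64% of all tested genes. Its call was lost without 5 libraries (adjusted p up to 0.159).

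Surface receptors changed in both directions. Of 29 adhesion G protein-coupled and orphan receptors, 4 were called higher and 2 lower, beside 2.22% and 1.42% of all tested genes. The 4 kept their call whichever library was left out. Adora2b, an adenosine receptor, was at 6.95, 8.16 and 9.81 CPM against 1.52, 2.42 and 3.01 CPM (1.84 ± 0.29), and Gpr141 at 104, 106 and 80.5 CPM against 32.9, 36.4 and 40.5 CPM (1.41 ± 0.26). Fpr2, a formyl peptide receptor, was lower (-0.48 ± 0.11), with a call lost without 4 libraries. Of 23 scavenger and efferocytosis receptors, 4 were lower and none higher, with Clec4n and Cd300ld (-0.97 ± 0.14) called without each library, and Mertk, which takes up apoptotic cells, at 368, 383 and 348 CPM against 483, 506 and 460.0 CPM (-0.40 ± 0.08), lost without knockout 3 (adjusted p = 0.0518) or control 2 (0.0567). Marco and Msr1 were at 789, 794 and 848 CPM against 623, 596 and 569 CPM and 26, 36.5 and 34.2 CPM against 28.9, 23.7 and 22.6 CPM, with adjusted p-values of 0.126 and 0.449. Plcb1 and Plcb4, paralogous phospholipases, moved apart, since Plcb1 was at 29.8, 36.6 and 29.2 CPM against 57.7, 62.1 and 44.5 CPM (-0.78 ± 0.15). The related pair Spsb4 and Spsb1 did likewise, with Spsb1 at 4.39, 3.58 and 3.99 CPM against 12.2, 13.7 and 16.3 CPM (-1.82 ± 0.25). Epcam, which is also an epithelial marker, was at 33.4, 24.7 and 41.3 CPM against 66.8, 67.3 and 64.1 CPM (-1.0 ± 0.17), while the 13 epithelial markers summed to 733 to 974 CPM in the knockouts and 673 to 729 CPM in the controls and Sftpc and Sftpa1 were under 1 CPM in every library.

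The lowest fold changes were smaller in size than the highest, from -3.50 to -1.59 over 15 genes. After Vhl and Tnnt2 (-3.50 ± 0.73, at 0.188, 0.0745 and 0.352 CPM against 0.591, 3.48 and 2.97 CPM, lost without knockout 1, knockout 2 or control 2 with adjusted p up to 0.0712) came Ifit1bl1 and Cxcl10. Ece1, an endothelin-converting enzyme, was at 1.77, 1.79 and 1.88 CPM in the knockouts and 7.30, 6.30 and 7.06 CPM in the controls (-1.93 ± 0.23, adjusted p = 5.49e-05), with very little spread within each group. Its antisense neighbour Gm13012 was also called lower (log2 fold change -1.31), and the reads of the pair may not be separated. Fam167a was at 2.10, 1.01 and 1.06 CPM against 6.29, 8.11 and 5.32 CPM (-2.24 ± 0.29), and Adgre4, an adhesion receptor of macrophages, at 0.451, 0.521 and 0.743 CPM against 2.49, 1.63 and 2.08 CPM (-1.85 ± 0.37). Spag11b had -1.73 ± 0.29 and Ksr2 -1.59 ± 0.29, both called without each library. Slc1a3 (-1.69), Kcnj10 (-1.69) and Ifit1bl1 (-2.33) each lost the call without some library, with adjusted p up to 0.0535, 0.111 and 0.102. The change of Ifit1bl1 was -3.30 without knockout 1 and -1.57 without control 3, and that of Tnnt2 was -4.12 without knockout 3.

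Genes of replication, respiration and protein synthesis had no member called by edgeR, and some mitosis genes were called lower. None of 38 S phase genes was called by edgeR (median -0.29) and 2, both lower, by DESeq2, while 16 were lower at an unadjusted p under 0.05 and 21 had every knockout below every control, beside 12% of all tested genes. Of 40 mitosis genes, 6 were called lower and none higher (median -0.32), beside 1.42% of all tested genes called lower. Every knockout lay below every control for 23 of the 40, beside 12% of all tested genes. Ccnb1, cyclin B1, was 1 of the 6, at 17.6, 17.7 and 16.9 CPM against 23.3, 28.1 and 23.4 CPM (-0.52 ± 0.13). None of the 6 stayed called without each library, and 0 to 3 of them were called when 1 library was left out. Mki67 was at 114, 140.2 and 157 CPM against 136, 209 and 156 CPM (adjusted p = 0.577). None of 74 respiratory chain genes, 34 genes of the tricarboxylic acid cycle and fatty acid oxidation or 55 cytosolic ribosomal protein genes was called by edgeR, with medians of 0.13, -0.02 and 0.23. At an unadjusted p under 0.05 there were 4, 2 and 17 of them, beside 1697 of all tested genes (13.2%), and DESeq2 called 0, 0 and 1. The 4 and the 17 were all higher, and of the 2, 1 was higher and 1 lower. The lowest log2 fold change of the 55 ribosomal protein genes was 0.057. Their sum was 20517, 20205 and 24483 CPM in the knockouts and 20604, 19048.5 and 16950 CPM in the controls, so the groups overlapped. Of 38 lysosome genes, Ctsk, cathepsin K, was called higher (0.52 ± 0.08) and no other, which is 2.63% of the list beside 3.64% of all tested genes.

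The effect in this cross was set against the effects in the other 2 crosses, fitted in the same model with a test of each difference. The Vhl-Hif2 knockout, in which HIF-1α remains, had 1895 genes called (14.7%), 991 higher (7.68%) and 904 lower (7.01%), with 26.3% of genes at an unadjusted p under 0.05. The triple knockout had 5 genes called (0.0388%), 4 higher (0.031%) and 1 lower (0.00775%), and 1484 (11.5%) at an unadjusted p under 0.05. Of the 286 genes called higher here, 202 were called higher in the Vhl-Hif2 cross, which is 70.6% of this list and 20.4% of the other, and 4 were called lower there. Of the 183 genes called lower here, 128 were called lower there (70.0% of this list and 14.2% of the other) and 5 higher. In the triple cross 2 of the 286 and 1 of the 183 (Vhl) were called in the same direction. The median log2 fold change of the 286 was 1.04 here, 0.88 in the Vhl-Hif2 cross and -0.10 in the triple cross, and of the 183 it was -0.69, -0.59 and -0.03, where the first of each comes from the values that chose the genes.

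The effect differed from that in the Vhl-Hif2 cross for 315 genes (2.44%), 105 higher (0.814%) and 210 lower (1.63%) in this cross. All 8 called class II genes were among the 105. Ciita had 3.59 here and -0.98 in the Vhl-Hif2 cross, a difference of 4.56 (adjusted p = 3.38e-06), and Cd74 had 3.70 and -0.71 (adjusted p of the difference 2.47e-05). In the triple cross the values were -0.62 for Ciita and -0.86 for Cd74, and both differences from this cross were called (adjusted p = 1.92e-05 and 2.65e-05). The effects on H2-M3 and H2-T23 were higher here as well, with -0.29 and -0.06 in the Vhl-Hif2 cross (adjusted p of the difference 2.43e-04 and 0.0278). Glycolysis lay on the other side. Of the 16 and 15 glycolysis genes, 9 and 11 had a lower effect here, where the list medians of 0.21 and 0.19 compare with 1.34 and 1.72 in the Vhl-Hif2 cross. Slc2a1 had 1.72 here and 3.87 there (adjusted p = 8.32e-05), Bnip3 2.39 and 4.31 (1.09e-04), and Egln1 0.49 and 2.18 (1.59e-06). For Egln3, with 5.41 and 6.08, the difference did not pass (adjusted p = 0.979), nor did it for Topaz1 (3.88 and 3.68), Gsn (2.72 and 2.43) or Lyz2 (-0.59 and -0.70).

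**Figure D5:**
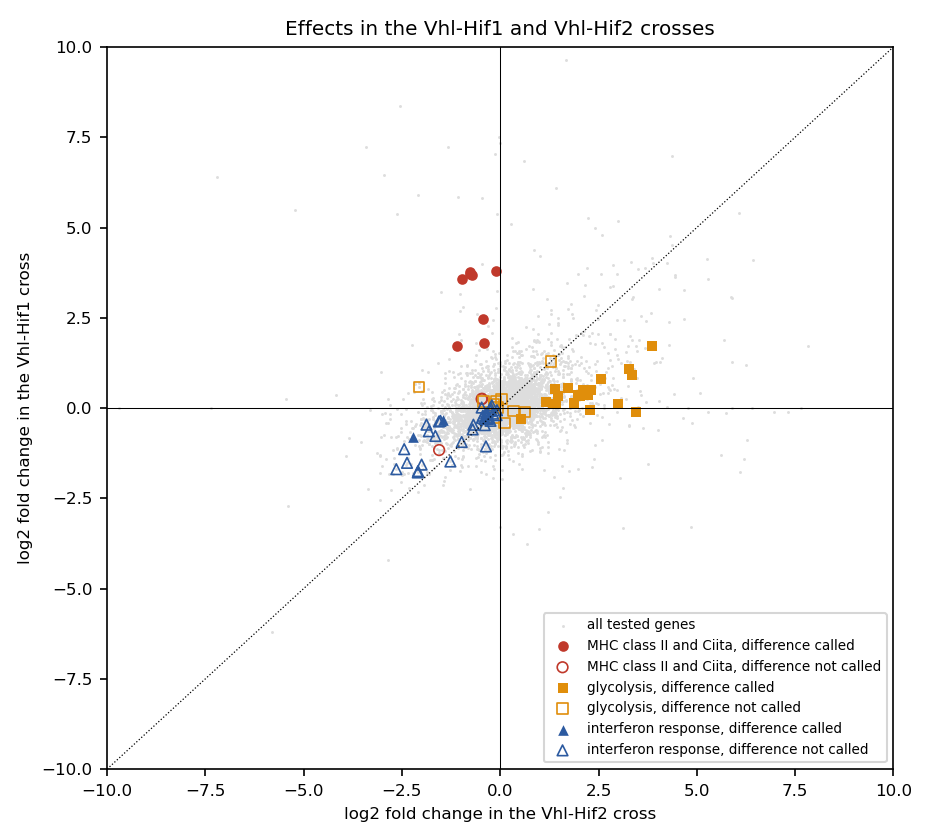
Log2 fold changes of knockout over control in the Vhl-Hif2 cross (horizontal axis) and the Vhl-Hif1 cross (vertical axis), with all tested genes in grey, 3 gene groups coloured, filled symbols where the difference between the crosses was called and a dotted line of equal effects. The 8 called class II genes lie high and near 0 or below on the horizontal axis, and the glycolysis genes whose difference was called lie to the right of the line.

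Against the triple cross 263 genes differed (2.04%), 194 higher (1.5%) and 69 lower (0.535%) in this cross. Of the 286 genes called higher here the difference was called for 177, and of the 183 called lower for 58. Each difference contains the estimate that chose these genes, which favours a call. Gsn had -0.41 in the triple cross (adjusted p of the difference 8.01e-06), Topaz1 0.64 (6.92e-05), Rtl5 -0.28 (8.01e-06) and F10 -0.10 (3.26e-05). Among genes called here, differences from both other crosses, in the direction of the change here, were called for 28 genes higher and 11 lower, with the same limit. Beside the class II genes, H2-M3 and H2-T23 the 28 held C3ar1, Slc7a2, Acly and Spsb4, and the 11 held Ece1, Spag11b and Spp1. C3ar1 had 1.01 in the Vhl-Hif2 cross and -0.12 in the triple cross (adjusted p = 0.00186 and 1.53e-04), and Slc7a2 -0.04 and 0.11 (2.90e-04 and 0.00153). Acly had 0.21 and -0.14 (0.00186 and 4.17e-05), and Ece1 -0.19 and -0.29 (0.00375 and 0.00849). For Arg1, with 3.01 and -0.01, neither difference passed (adjusted p = 0.65 and 0.0828).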

How the data were processed

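RNA sequencing was done on polyA RNA of alveolar macrophages. The submitters' processing notes name FastQC, cutadapt, STAR and the GRCm38 build. They give no versions, and the counting tool, its annotation and its strand setting were not found in the sources used. Values of the authors' deposited table are expected counts per gene for 32789 genes, judged from the values, of which 89.251% were whole and whose column totals differed. Each was rounded to a whole number before testing, and the number of columns from other samples was 0.

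Genes were filtered with filterByExpr over the 6 groups of the series, which left 12900 genes with 99.967% of all counts. A quasi-likelihood model of edgeR 4.0.16 with TMM factors and 1 coefficient per group was fitted to the 18 libraries, so that all groups share 1 estimate of spread, and adjusted p-values (Benjamini-Hochberg, 0.05) cover all tested genes. The difference between crosses is an interaction contrast of that model. The SE is the size of the log2 fold change divided by the square root of F, which is approximate. R 4.3.3, limma 3.58.1 and DESeq2 1.42.0 were also used, and the steps were tested on simulated data. No molecular identifiers are described, so errors cover counting and the spread between libraries only.

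Named genes were Vhl, Hif1a and Epas1, the 20 highest and 15 lowest called log2 fold changes (mean of at least 1 CPM, no overlap between groups), the 10 largest gains and losses in CPM (called genes, no overlap between groups), and for each list up to 5 called genes per direction and the 3 first listed. Predicted genes were counted but not named. H2-Oa, H2-Ob, H2-DMa, H2-DMb2, Nrn1, Lrp2bp, Gm13012, Olfml2a, C1qa and the families of the closing section fall outside that rule and were chosen after their values were seen. The comparison, the 49 gene lists (10 of cell markers) and the rules were chosen with earlier results of these data known. Gene positions are from GENCODE M21 and promoters (250 bases before the start) from RefSeq GRCm38.p6, which covered 9958 tested genes. No pair of libraries within the Vhl-Hif1_KO group or within the Vhl-Hif1_WT group was a duplicate. The labels give no batch or date. Alternatives were other size factors, DESeq2, other filters, the 6 libraries alone, a replicate block and each library left out. Some list members are counted but not reported here by name.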

Additional observations from a re-analysis of the deposited data

Results flagged for a closer look

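The effect of the knockout differed between crosses, by the test of the difference itself, for 315 genes against the Vhl-Hif2 cross and for 263 genes against the triple cross. Among the named genes with opposite called directions, Ciita differed most, by 4.56 on the log2 scale from the Vhl-Hif2 cross (higher here and -0.98 there). H2-M3 differed by 0.886 in the same sense. Plcb1 differed by -1.43, with -0.78 here and 0.65 in the Vhl-Hif2 cross. Narf differed by -2.34 and Tgm2, a transglutaminase, by -0.699, both lower here and higher there, and both lost their call here when some single library was left out. Plcb4 rose in this cross and in the triple cross, where its change of 6.83 was larger, a difference of -2.31. Groups of 3 libraries are too small for the test for a sample that lies apart.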

How the results depend on the processing

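The 469 called genes became 467 with RLE size factors, 667 with DESeq2, 451 without a filter, 482 with a CPM of at least 1 in at least 3 libraries and 584 in the 6 libraries alone, and 462, 466, 407, 457 and 413 of the 469 were shared. Leaving out 1 library gave 275 to 360 genes, and the cause was not tested beyond the smaller number of libraries (297 without knockout 2, 299 without knockout 3, 275 without control 2). Against the Vhl-Hif2 cross the 315 genes became 492 with DESeq2 and 233 to 252 with 1 library left out. Against the triple cross the 263 became 479 with DESeq2 and 161 to 256 with 1 left out, lowest without knockout 3 or control 2 (161) and 169 without knockout 2. The 115 called list members numbered 74 to 90 with 1 library left out, and the 134 called named genes 90 to 105. Of 218 named genes 134 were called, 80 of them under each alternative run, and none of the 134 changed direction.

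The replicate numbers gave no sign of pairing, with correlations of same-numbered knockout and control libraries of -0.0175, 0.0558 and -0.0494. Such values cannot show that the libraries were unpaired, and the labels do not say. With the replicate block 313 genes were called, 194 against the Vhl-Hif2 cross, 150 against the triple cross, 85 list members and 101 named genes.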

Other observations

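Families of genes were counted after their values were seen, so no test is given for them, and over all tested genes 2.22% were called higher and 1.42% lower. Of 9 tested Cd300 genes, which encode paired immune receptors, 6 were called lower and none higher, with a median log2 fold change of -0.88. All 3 tested Pilr genes, another family of paired receptors, were lower (median -0.62), and 2 of 4 Siglec genes, Siglecf and Siglece, were lower. Of 8 guanylate-binding protein genes 5 were lower (median -0.80), of 5 Ifit genes 4, and of 17 Clec genes 3. In the other direction, 4 of 10 tested genes of actin-binding proteins were higher, namely Gsn, Pls3, Tln2 and Vcl. Of 12 adenosine enzymes and receptors 3 were higher and none lower, namely Nt5e, which makes adenosine, Entpd4 and Adora2b. Of 4 syndecans and glypicans, Sdc3 and Sdc4 were higher, and of 3 caveolins and cavins Cav1 was. Of 8 S100a genes, 11 Galnt genes and 19 integrin chains 2 each were higher and none lower. Other families moved both ways, with 2 higher and 1 lower among 7 Fc gamma receptor and Fcrl genes (Fcgr2b and Fcrlb against Fcgr1) and among 10 collagen chains (Col14a1 and Col6a3 against Col15a1).

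Itgax, whose promoter drives the Cre, was at 1521, 1650.5 and 1601 CPM in the knockouts and 1487, 1457 and 1362 CPM in the controls (0.15 ± 0.06, adjusted p = 0.309), with 0.45 in the Vhl-Hif2 cross and 0.66 in the triple cross (adjusted p = 9.84e-05 and 6.81e-05). Its neighbours Itgam and Itgad had 1.34 and 0.83 here (adjusted p = 7.05e-04 and 0.0251), 2.80 and 2.67 in the Vhl-Hif2 cross, and 1.25 and 0.56 in the triple cross (adjusted p = 0.0354 and 0.429). The difference from the triple cross did not pass for either gene (adjusted p = 0.880 and 0.603), and that from the Vhl-Hif2 cross was called for both (0.00930 and 8.04e-04).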
